A study of Mus musculus with 32 samples.

Results

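The present results concern 10 rows of the count table, the FOXO factors and FOXO-induced genes. They are the forkhead factors Foxo1, Foxo3 and Foxo4 and 7 genes known to be switched on by FOXO factors, namely Pik3ip1, Sesn1, Sesn3, Ccng2, Gadd45a, Bcl6 and Bcl2l11. They were found by gene symbol, and all 10 were present among the 23337 genes of the table and passed the filter on low counts in the fits whose values are given; Foxo3 missed it in TC when the BLZ945 counts were halved. The symbols were chosen because FOXO factors are held down by PI3K signalling, so that their induced genes are used as an inverse readout of PI3K activity. No sample was chosen by the level of these genes.

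The study sequenced RNA of 2 cell sorts from gliomas that grew after DF-1:PDGFB cells were injected into the brains of XFM mice, aged 5 to 6 weeks at injection. Tumour-associated macrophages (TAM) were sorted as Cd11b+ Gr-1- cells and tumour cells (TC) as PDGFRA+ cells, from mice dosed every day from a tumour volume of 20 to 40 mm3 until symptoms or the end of the trial at 26 weeks of age. Rebound tumours gave 5 TAM and 5 TC libraries and Endpoint tumours 6 TAM and 6 TC libraries, both after BLZ945, an inhibitor of the CSF-1 receptor. Vehicle tumours gave 5 TAM and 5 TC libraries.

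Every group shares the XFM strain, the PDGFB-driven tumour, and the perfusion, papain digestion and sorting. The labels do not spell out XFM, give no age at sampling for a single mouse, and carry BLZ945 as the agent even for the Vehicle libraries; the stage was therefore used to tell treated from untreated mice. The libraries come from 17 mice, of which 15 gave both sorts. In these bulk libraries, fewer cells of a type and less RNA per cell cannot be told apart.

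FOXO factors are forkhead transcription factors. When growth factors such as IGF-1 activate PI3K, the kinase AKT phosphorylates FOXO proteins and they are held in the cytoplasm by 14-3-3 proteins; when PI3K activity is low, they enter the nucleus and switch on genes of growth arrest, stress resistance, PI3K feedback and cell death. This control acts on the protein, so the mRNA of a FOXO factor is not a measure of its activity. Several of the induced genes also answer to other factors, p53 among them.

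Levels are given as CPM, the counts of a gene scaled to the size of its library (with TMM factors). The labelled sorts were checked against their defining genes. Csf1r, the receptor of the treated cells, averaged 4520, 7152 and 10887 CPM in Rebound, Endpoint and Vehicle TAM, against 22.3, 518 and 162 CPM in Rebound, Endpoint and Vehicle TC. Pdgfra, the sort marker of TC, averaged 1884, 172 and 1989 CPM in Rebound, Endpoint and Vehicle TC, so the Endpoint TC libraries held little of it. They also held markers of other cells: 16 T and NK cell markers summed to 25.5 to 8342 CPM in Endpoint TC, 18.5 to 5220 CPM in Rebound TC and 11.7 to 24.6 CPM in Vehicle TC, and 12 ependymal and choroid plexus markers to 6472 to 220071, 2.56 to 1180 and 12.04 to 625 CPM in the same order. Cd3e, a T cell receptor subunit, reached 890 CPM in Endpoint TC and 1.60 CPM in Vehicle TC. Foxj1, an ependymal factor, reached 24.8 CPM in the Endpoint TC library of mouse 49845. Its Endpoint TC median was 2.01 CPM, and Vehicle TC reached 4.71 CPM. In TAM the T and NK markers summed to 11.7 to 290 CPM at Rebound, 7.35 to 35.4 CPM at Endpoint and 6.27 to 23.6 CPM at Vehicle. All counts in the 22 Rebound and Endpoint libraries are even, against 47.1% to 49.5% of the non-zero counts in the Vehicle libraries. The deposited counts of treated and untreated libraries are thus not alike in form, and how each was counted is not given in the sources used here. This touches the comparisons with Vehicle, and halved counts in the treated libraries were an alternative. Library totals were 15352174 to 19561440 counts in Rebound TAM, 9543888 to 15789460 in Endpoint TAM, 25556830 to 30383148 in Vehicle TAM, 10501264 to 16460126 in Rebound TC, 4180176 to 14029216 in Endpoint TC and 13126801 to 22989777 in Vehicle TC.

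Positions are those of GENCODE M21 on GRCm38. The 3 factors are Foxo1 at chr3:52268336-52353221 on the plus strand, Foxo3 at chr10:42181841-42276755 on the minus strand and Foxo4 at chrX:101254528-101260873 on the plus strand. The induced genes on the plus strand are Pik3ip1 at chr11:3330401-3342971, Sesn1 at chr10:41809935-41908424, Sesn3 at chr9:14275067-14333101, Ccng2 at chr5:93267257-93276231 and Bcl2l11 at chr2:128126038-128162547. Those on the minus strand are Gadd45a at chr6:67035096-67037457 and Bcl6 at chr16:23965052-23988852. Annotated genes overlap Foxo1 (Gm20402 and Gm38034), Sesn1 (9930024M15Rik), Pik3ip1 (Gm12592), Bcl6 (Gm37419) and Gadd45a (E230016M11Rik), and since no strand is recorded for the counts, reads of these partners cannot be told apart.

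Promoter sequence was compared for the genes that were higher in both sorts at Endpoint, to show which letters of the forkhead core lie beside their start. RefSeq windows of 250 bases before to 50 after the start (GRCm38.p6) matched 9 of the 10 genes. The core GTAAACA, read on both strands, occurred in 2 of these 9 genes, against 4.05% of 27025 genes, and in 2 of their 12 windows, against 3.65% of 32851 windows. The looser GNAAACA, which includes the core, occurred in 3 of the 9 genes, with Bcl6 added, against 22.8% of all genes, and in 3 of the 12 windows, against 20.5% of all windows. A match is only letters in a window. The stretches shown are on the plus strand, with the core in capitals, and the Sesn1 match is the reverse complement.
Sesn1, chr10:41810474-41810602: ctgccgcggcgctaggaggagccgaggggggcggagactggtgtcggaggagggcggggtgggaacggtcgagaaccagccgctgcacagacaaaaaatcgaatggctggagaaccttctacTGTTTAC
Bcl2l11, chr2:128125788-128125937: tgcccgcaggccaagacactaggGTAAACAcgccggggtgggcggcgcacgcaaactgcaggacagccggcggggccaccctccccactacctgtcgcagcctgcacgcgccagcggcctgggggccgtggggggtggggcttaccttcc
Pik3ip1, chr11:3330531-3330730: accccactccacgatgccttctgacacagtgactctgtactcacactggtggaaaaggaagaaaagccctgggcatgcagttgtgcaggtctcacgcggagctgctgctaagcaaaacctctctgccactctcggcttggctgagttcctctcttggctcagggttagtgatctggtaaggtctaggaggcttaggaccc
The Sesn1 and Bcl2l11 matches begin at +23 and -227 from the RefSeq start. Pik3ip1 is shown because it had the largest increase of the 10 genes in Endpoint over Vehicle TAM and holds neither form in its window. The Sesn1 stretch is 62.8% G and C, the Bcl2l11 stretch 72.7% and the Pik3ip1 stretch 55.0%.

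In Endpoint macrophages, 4 FOXO-induced genes rose over Vehicle and 1 fell. The 4 were Pik3ip1, Sesn1, Ccng2 and Bcl2l11, against a background of 13.7% of the 13315 genes tested that rose, and the 1 was Bcl6, against 19.3% that fell (edgeR's quasi-likelihood test with Benjamini-Hochberg adjustment over all genes tested, threshold 0.05). Summed cell type markers also differed without overlap between these TAM groups. Lower at Endpoint than at Vehicle were myeloid (52233 to 61832 against 66715 to 107003 CPM) and microglia markers (11225 to 14040 against 17757 to 34211 CPM). So were endothelial (9.12 to 22.3 against 27.4 to 49.8 CPM), pericyte and fibroblast (11.6 to 20.8 against 28.7 to 74.7 CPM) and dendritic cell markers (51.6 to 85.8 against 95.3 to 145 CPM). Higher at Endpoint were ependymal and choroid plexus (50.9 to 130 against 2.60 to 5.36 CPM) and neuron markers (22.0 to 50.7 against 8.18 to 13.7 CPM). Their part in the results was not tested. In Endpoint TC, 4 genes rose over Vehicle, namely Foxo1, Sesn1, Pik3ip1 and Bcl2l11, and 0 fell, against 14.0% and 14.8% of 14985 genes. Sesn1, Pik3ip1 and Bcl2l11 thus passed in both sorts, which come largely from the same mice. The share of all genes that rose in both sorts was not counted, so this overlap has no background to be read against.

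Over Vehicle, 3 genes rose in Rebound TAM, namely Gadd45a, Pik3ip1 and Bcl2l11, and 0 fell, against 7.0% and 7.73% of all genes. Relative to Endpoint, Rebound TAM had Gadd45a and Bcl6 higher and Sesn1 and Ccng2 lower, so 2 in each direction against 11.7% and 5.90%. In TC, Rebound relative to Endpoint had Gadd45a and Sesn3 higher and Foxo1 and Sesn1 lower, so 2 in each direction against 13.6% and 11.5%. No gene of the 10 passed between Rebound and Vehicle TC, where 0.0400% of all genes rose and 0.0334% fell; 3 of the 10 had an unadjusted p under 0.05, as did 2243 of all 14985 genes, and DESeq2 called 1, Pik3ip1. Comparisons with the same stage share its libraries, so their counts are not independent.

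**Figure D1:**
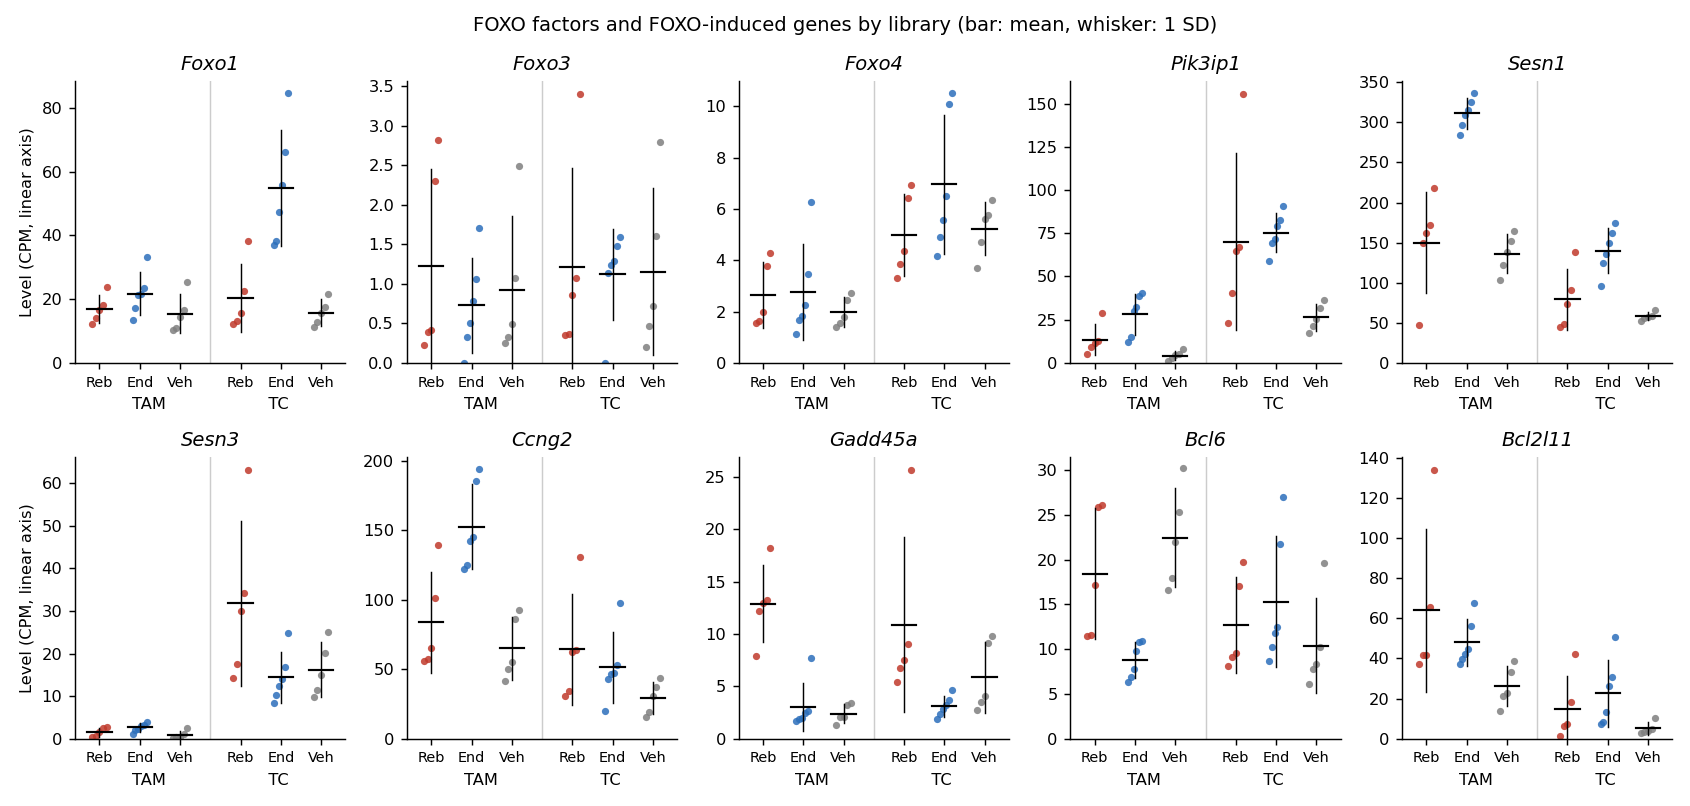
CPM (linear axis) of each of the 10 genes in every library, with TAM left and TC right and the stages Rebound, Endpoint and Vehicle in each. Points are libraries, bars means and whiskers 1 SD; Sesn1 in Endpoint TAM lies at 284 CPM or more in all 6 libraries, above every Vehicle TAM library.

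Foxo1, the FOXO factor with the most mRNA here, differed between Endpoint TC and each other TC stage, but not between Rebound and Vehicle TC. It passed in no stage comparison of TAM in the main fit. In TC it had 22.5, 15.7, 12.3, 38.2 and 13.2 CPM at Rebound, 36.8 to 84.6 CPM with a median of 51.5 at Endpoint, and 15.8, 21.7, 11.2, 17.5 and 12.7 CPM at Vehicle. All 6 Endpoint TC libraries lay above all 5 Vehicle TC libraries, and 1 Rebound library, of mouse 49827, reached into the Endpoint range. Endpoint TC averaged 54.8 ± 18.3 CPM (SD, n = 6) and Vehicle TC 15.8 ± 4.15 CPM (SD, n = 5), a log2 fold change of 1.80 ± 0.34 (SE, edgeR adjusted p = 0.00186). Rebound TC fell relative to Endpoint TC by 1.43 on the log2 scale (SE 0.33, edgeR adjusted p = 0.00664), and against Vehicle TC its log2 fold change was 0.37. Both calls held in all 24 alternatives. One of these leaves out the 8 lymphocyte-marked libraries, those with over 50 CPM of T and NK markers in TAM or 1000 CPM in TC (1.41, adjusted p = 0.0406, and -1.39, adjusted p = 0.0314), which leaves 2 Endpoint and 4 Rebound TC libraries. Ependymal and choroid plexus markers, at 6472 CPM or more, and myelinating oligodendrocyte markers, at 22993 to 34335 CPM, were higher in all 6 Endpoint TC libraries than in any Vehicle TC library (at most 625 and 18375 CPM), so their part in the Endpoint rises of Foxo1, Sesn1 and Pik3ip1 in this sort cannot be told apart from the stage.

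In TAM, Foxo1 had 23.7, 18.1, 12.4, 14.0 and 16.5 CPM at Rebound, 13.6 to 33.2 CPM with a median of 21.5 at Endpoint, and 10.9, 25.3, 14.4, 16.7 and 10.2 CPM at Vehicle. The 3 stages overlapped. The log2 fold change of Endpoint over Vehicle TAM was 0.49 ± 0.26 (SE, edgeR adjusted p = 0.163), and 0.74 (adjusted p = 0.0377) without the highest Vehicle library, of mouse 54363. That of Rebound over Vehicle TAM was 0.13 (edgeR adjusted p = 0.794) and that of Rebound over Endpoint TAM -0.36 (edgeR adjusted p = 0.378).

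Foxo3 and Foxo4, the other factors measured, were low in both sorts and passed in none of the 12 comparisons in edgeR. Foxo3 had 0 to 56 counts in a library; it reached 2.82, 1.70 and 2.49 CPM in Rebound, Endpoint and Vehicle TAM, and 3.40, 1.59 and 2.80 CPM in Rebound, Endpoint and Vehicle TC. At these counts a change is hardly detectable. Foxo4 ranged over 1.55 to 4.28 CPM in Rebound, 1.14 to 6.26 in Endpoint and 1.38 to 2.71 in Vehicle TAM. In TC it ranged over 3.30 to 6.92 CPM at Rebound, 4.16 to 10.5 at Endpoint and 3.71 to 6.34 at Vehicle. These ranges overlap at every stage within a sort. Foxo6, the remaining FOXO factor of the mouse, had at most 18 counts in any library and did not enter the fits.

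Pik3ip1 encodes a membrane protein that binds the catalytic subunit of PI3K and inhibits it, and it rose at Endpoint in both sorts. In TAM it had 11.8, 4.93, 28.7, 9.02 and 12.7 CPM at Rebound, 11.996 to 40.2 CPM with a median of 31.3 at Endpoint, and 7.99, 5.02, 4.38, 2.74 and 1.37 CPM at Vehicle. Every Endpoint library lay above every Vehicle library, and the Rebound libraries spanned both ranges. Endpoint TAM averaged 28.2 ± 11.9 CPM (SD, n = 6) and Vehicle TAM 4.30 ± 2.51 CPM (SD, n = 5), a log2 fold change of 2.71 ± 0.49 (SE, edgeR adjusted p = 0.000448) that was called in all 24 alternatives. Rebound TAM, at 13.4 ± 9.07 CPM (SD, n = 5), also rose over Vehicle TAM, by 1.64 ± 0.48 (SE, edgeR adjusted p = 0.0289). That call was lost in limma voom over all 32 libraries with the mouse as a block, which changes the test and the samples as well as the block (1.57, adjusted p = 0.152). It was also lost with 2 groups only (1.65, adjusted p = 0.0666), with no filter (1.59, adjusted p = 0.0558), without the Rebound library of mouse 49827 (1.14, adjusted p = 0.0959), and without the Vehicle library of 54363, 57682 or 64247 (1.39 to 1.68, adjusted p = 0.0537 to 0.0660). Between Rebound and Endpoint TAM the log2 fold change was -1.07 ± 0.45 (SE, edgeR adjusted p = 0.114), and -1.57 (adjusted p = 0.0190) without mouse 49827.

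In TC, Pik3ip1 had 155, 40.6, 67.3, 64.6 and 23.0 CPM at Rebound, 58.9 to 90.7 CPM with a median of 75.3 at Endpoint, and 36.4, 17.3, 31.5, 25.2 and 21.5 CPM at Vehicle. Endpoint and Vehicle TC did not overlap, while Rebound TC spanned both. The Endpoint mean of 75.4 ± 11.1 CPM (SD, n = 6) stood against 26.4 ± 7.65 CPM at Vehicle (SD, n = 5), a log2 fold change of 1.51 ± 0.37 (SE, edgeR adjusted p = 0.00803). Leaving out those 8 libraries, it was as large, 1.54, but no longer called (adjusted p = 0.0941). Rebound over Vehicle TC gave 1.41 ± 0.38 (SE, edgeR adjusted p = 0.131), called by DESeq2 (1.43, adjusted p = 0.0178), and Rebound over Endpoint TC gave -0.10 (edgeR adjusted p = 0.852).

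Sesn1 encodes a sestrin, a leucine-sensing protein that restrains mTORC1 and is induced by both FOXO and p53. It was the member with the most mRNA per kilobase in 5 of the 6 groups, and the tightest within Endpoint TAM. In TAM it had 172, 46.9, 218, 162 and 150 CPM at Rebound, 284 to 337 CPM with a median of 312 at Endpoint, and 152, 104, 122, 165 and 138 CPM at Vehicle. The Endpoint libraries lay above all others of the sort. Endpoint TAM averaged 311 ± 19.1 CPM (SD, n = 6) and Vehicle TAM 136 ± 24.2 CPM (SD, n = 5), a log2 fold change of 1.19 ± 0.26 (SE, edgeR adjusted p = 0.00165) called in all 24 alternatives. Rebound TAM fell relative to Endpoint TAM by 1.06 on the log2 scale (SE 0.25, edgeR adjusted p = 0.00763), and by 0.71 without the 8 libraries, which leaves 2 Rebound TAM libraries (adjusted p = 0.0761). The log2 fold change of Rebound over Vehicle TAM was 0.14 (edgeR adjusted p = 0.768).

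In TC, Sesn1 had 139, 45.3, 73.4, 90.5 and 48.1 CPM at Rebound, 95.6 to 174 CPM with a median of 143 at Endpoint, and 58.7, 66.1, 57.9, 56.1 and 52.9 CPM at Vehicle. Endpoint lay above Vehicle in every library, and the Rebound library of mouse 49041 lay within the Endpoint range. Endpoint TC averaged 140 ± 28.2 CPM (SD, n = 6) and Vehicle TC 58.4 ± 4.90 CPM (SD, n = 5), a log2 fold change of 1.26 ± 0.27 (SE, edgeR adjusted p = 0.00343). It was as large without the 8 libraries (1.46, adjusted p = 0.0342): the 2 Endpoint TC libraries with few T and NK markers, of mice 49843 and 49845, had 174 and 149 CPM. Rebound TC fell relative to Endpoint TC by 0.82 on the log2 scale (SE 0.26, edgeR adjusted p = 0.0301), a call lost without Endpoint 49831 or Rebound 49059, 49692 or 49849 (-0.79 to -0.67, adjusted p = 0.0566 to 0.0880) and without the 8 libraries (-1.08, adjusted p = 0.0762), with 2 groups only (-0.78, adjusted p = 0.0764) and with no filter (-0.76, adjusted p = 0.0523). Rebound over Vehicle TC gave 0.44 (edgeR adjusted p = 0.473).

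Sesn3, a sestrin known as a FOXO target that lowers mTORC1 activity and feeds back on AKT, was low in TAM and higher in TC. In TC it had 63.1, 17.6, 30.002, 34.2 and 14.2 CPM at Rebound, 8.33 to 24.9 CPM with a median of 13.1 at Endpoint, and 14.8, 25.2, 9.67, 11.3 and 20.1 CPM at Vehicle. The 3 highest libraries were all Rebound ones, and the groups overlapped. Rebound over Endpoint TC gave a log2 fold change of 1.15 ± 0.40 (SE, edgeR adjusted p = 0.0456), a call lost without Endpoint 49823, 49825, 49830, 49831 or 49845, Rebound 49041, 49692 or 49827, or Vehicle 64247 (0.74 to 1.19, adjusted p = 0.0515 to 0.181, both lowest and least certain without Rebound 49041). In the fit that omits the 8 libraries, it was 0.70 (adjusted p = 0.456), and the call was also lost with RLE size factors, 2 groups only or all 6 groups in 1 fit (1.10 to 1.19, adjusted p = 0.0544 to 0.0988). Endpoint over Vehicle TC gave -0.18 (edgeR adjusted p = 0.774) and Rebound over Vehicle TC 0.97 (edgeR adjusted p = 0.292). In TAM it stayed at or under 4.001 CPM, with 0.333 to 2.63 CPM at Rebound, 1.12 to 4.001 CPM at Endpoint and 0.178 to 2.51 CPM at Vehicle. Endpoint over Vehicle TAM gave 1.49 ± 0.68 (SE, edgeR adjusted p = 0.0981), and 2.27 (adjusted p = 0.0206) without Vehicle 54359. Rebound over Vehicle TAM gave 0.69 (edgeR adjusted p = 0.539) and Rebound over Endpoint TAM -0.80 (edgeR adjusted p = 0.443).

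Ccng2 encodes cyclin G2, an unconventional cyclin that is linked to cell cycle arrest and rises in quiescent cells. In TAM it had 139, 56.1, 101, 57.1 and 65.0 CPM at Rebound, 122 to 194 CPM with a median of 144 at Endpoint, and 86.2, 92.6, 41.3, 50.2 and 55.1 CPM at Vehicle. Endpoint TAM lay above Vehicle TAM in every library, and 1 Rebound library, of mouse 49041, lay within the Endpoint range. The means were 153 ± 30.5 CPM at Endpoint (SD, n = 6) and 65.1 ± 22.8 CPM at Vehicle (SD, n = 5), a log2 fold change of 1.23 ± 0.26 (SE, edgeR adjusted p = 0.00158) called in all 24 alternatives. Rebound TAM fell relative to Endpoint TAM by 0.87 on the log2 scale (SE 0.26, edgeR adjusted p = 0.0267). Rebound over Vehicle TAM gave 0.36 (edgeR adjusted p = 0.385). The call of Rebound against Endpoint was lost in voom with the mouse as a block (-0.90, adjusted p = 0.0651), with all 6 groups in 1 fit (-0.83, adjusted p = 0.154), without Endpoint 49830 or 49831 or Rebound 49059, 49834 or 49849 (-0.80 to -0.75, adjusted p = 0.0560 to 0.0774), and without the 8 libraries (-0.94, adjusted p = 0.126). In TC, Ccng2 ranged over 30.8 to 131 CPM at Rebound, 20.1 to 98.1 CPM at Endpoint and 15.5 to 43.5 CPM at Vehicle, and no comparison passed: the log2 fold changes were 0.81 for Endpoint over Vehicle (edgeR adjusted p = 0.157), 1.14 for Rebound over Vehicle (0.234) and 0.33 for Rebound over Endpoint.

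Gadd45a, a small stress protein that acts in growth arrest and DNA repair and is induced by both FOXO and p53, rose at Rebound. In TAM it had 12.2, 18.2, 13.2, 7.86 and 12.99 CPM at Rebound, 1.69 to 7.70 CPM with a median of 2.22 at Endpoint, and 3.18, 1.29, 2.05, 3.45 and 2.06 CPM at Vehicle. Every Rebound TAM library lay above every Endpoint and Vehicle library, the nearest being Endpoint 49843. Rebound TAM averaged 12.9 ± 3.67 CPM (SD, n = 5) and Vehicle TAM 2.40 ± 0.892 CPM (SD, n = 5), a log2 fold change of 2.42 ± 0.43 (SE, edgeR adjusted p = 0.00171) called in all 24 alternatives. Over Endpoint TAM the rise was 2.08 ± 0.40 (SE, edgeR adjusted p = 0.00154), and without the 8 libraries 1.80 (adjusted p = 0.0696). Endpoint over Vehicle TAM gave 0.34 (edgeR adjusted p = 0.548). Endothelial markers were likewise higher in every Rebound TAM library, at 57.1 to 131 CPM, than in any Endpoint (at most 22.3 CPM) or Vehicle TAM library (at most 49.8 CPM). Tumour cell and progenitor markers had medians of 149, 41.007 and 63.8 CPM, and pericyte and fibroblast markers 148, 13.9 and 64.9 CPM, in Rebound, Endpoint and Vehicle TAM. The part of these cells in the result was not tested.

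In TC, Gadd45a had 25.7, 9.08, 7.47, 6.79 and 5.38 CPM at Rebound, 1.86 to 4.63 CPM with a median of 3.03 at Endpoint, and 2.75, 9.11, 4.06, 3.47 and 9.83 CPM at Vehicle. Rebound lay above Endpoint in every library but overlapped Vehicle. Rebound rose over Endpoint TC by 1.81 ± 0.52 (SE, edgeR adjusted p = 0.0184), and by 1.21 (adjusted p = 0.0933) without its highest library, of mouse 49041. That library held the most pericyte and fibroblast marker RNA of its group (8150 CPM, in a range from 258) and the highest level of 8 of the 10 genes among Rebound TC; the part of these in the result was not tested. Without the 8 lymphocyte-marked libraries the value was 1.79 (adjusted p = 0.153). Endpoint over Vehicle TC gave -0.91 (edgeR adjusted p = 0.193) and Rebound over Vehicle TC 0.90.

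Bcl6, a zinc finger repressor that dampens inflammatory genes in macrophages, was the member that fell in Endpoint TAM. In TAM it had 26.1, 25.9, 11.6, 11.5 and 17.2 CPM at Rebound, 6.38 to 10.9 CPM with a median of 8.83 at Endpoint, and 30.2, 22.0, 25.4, 16.6 and 18.0 CPM at Vehicle. Endpoint TAM lay below both other groups in every library. Endpoint TAM averaged 8.78 ± 2.00 CPM (SD, n = 6) and Vehicle TAM 22.4 ± 5.55 CPM (SD, n = 5), a log2 fold change of -1.35 ± 0.26 (SE, edgeR adjusted p = 0.000686) called in all 24 alternatives. Rebound TAM was higher than Endpoint TAM by 1.07 ± 0.26 (SE, edgeR adjusted p = 0.00765), a call just lost in voom with the mouse as a block (1.05, adjusted p = 0.0513) and lost without the 8 libraries (0.40, adjusted p = 0.526). The 2 Rebound TAM libraries that those leave, of mice 49827 and 49834, are the lowest of the 5, and the T and NK markers of the other Rebound libraries sum to 51.1 to 290 CPM. Dendritic cell markers summed to 55.7 to 467 CPM in Rebound TAM and 51.6 to 85.8 CPM in Endpoint TAM; their part in the result was not tested.

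In TC, Bcl6 ranged over 8.07 to 19.8 CPM at Rebound, 8.71 to 27.0 CPM with a median of 12.1 at Endpoint and 6.11 to 19.6 CPM at Vehicle. The 3 stages overlapped and none of the comparisons passed, with log2 fold changes of 0.55 for Endpoint over Vehicle (edgeR adjusted p = 0.332), 0.29 for Rebound over Vehicle and -0.27 for Rebound over Endpoint. Between Rebound and Vehicle TAM the log2 fold change was -0.28 (edgeR adjusted p = 0.515).

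Bcl2l11 encodes BIM, a BH3-only protein that starts apoptosis by binding BCL2 and its relatives. In TAM it had 134, 37.3, 65.9, 41.7 and 41.5 CPM at Rebound, 37.3 to 67.7 CPM with a median of 43.4 at Endpoint, and 33.5, 13.8, 23.0, 38.9 and 21.4 CPM at Vehicle. The Vehicle maximum of 38.9 CPM lay just above the lowest Rebound and Endpoint libraries. Rebound TAM, at 64.1 ± 40.6 CPM (SD, n = 5), was higher than Vehicle TAM, at 26.1 ± 9.999 CPM (SD, n = 5), by a log2 fold change of 1.29 ± 0.34 (SE, edgeR adjusted p = 0.0166). That call was lost in voom with the mouse as a block (1.11, adjusted p = 0.0730), with all 6 groups in 1 fit (1.21, adjusted p = 0.219), with 2 groups only (1.30, adjusted p = 0.0549), without Rebound 49041 (0.83, adjusted p = 0.0546) and without the 8 libraries (1.03, adjusted p = 0.0881). Endpoint TAM, at 48.0 ± 11.7 CPM (SD, n = 6), was higher than Vehicle TAM by 0.88 ± 0.32 (SE, edgeR adjusted p = 0.0446), a call made in 13 of 24 alternatives. It was lost in voom with the block (0.81, adjusted p = 0.124), with all 6 groups in 1 fit (0.75, adjusted p = 0.370), with no filter (0.86, adjusted p = 0.0790) and without Endpoint 49823, 49830, 49831 or 49843, Rebound 49827, or Vehicle 54363, 57098 or 64247 (0.72 to 0.91, adjusted p = 0.0544 to 0.111). Rebound over Endpoint TAM gave 0.42 (edgeR adjusted p = 0.398).

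In TC, Bcl2l11 varied widely within a stage. It had 18.1, 1.30, 6.30, 42.2 and 7.10 CPM at Rebound, 26.1, 30.7, 13.2, 50.7, 8.48 and 7.28 CPM at Endpoint in the order of mice 49823, 49825, 49830, 49831, 49843 and 49845, and 10.3, 3.51, 5.03, 3.83 and 2.83 CPM at Vehicle. The 4 Endpoint libraries at 13.2 CPM or more held 6436 to 8342 CPM of T and NK markers, and the other 2, at 8.48 and 7.28 CPM, held 62.6 and 25.5 CPM of them; the highest Rebound library, of mouse 49827, held 5220 CPM. The next Rebound library, of mouse 49041, had 18.1 CPM of Bcl2l11 with 39.5 CPM of these markers, above Endpoint 49830, and the highest Vehicle library, of mouse 54359, had 10.3 CPM with 14.4 CPM of them, above Endpoint 49843 and 49845. Endpoint TC averaged 22.8 ± 16.7 CPM (SD, n = 6) and Vehicle TC 5.11 ± 3.03 CPM (SD, n = 5), a log2 fold change of 2.16 ± 0.73 (SE, edgeR adjusted p = 0.0370). With the 8 lymphocyte-marked libraries left out, it was 0.62 (adjusted p = 0.671). That fit keeps 2 Endpoint libraries, and the part of T and NK cells was not tested. The call was also lost without Endpoint 49823, 49825 or 49831 or Vehicle 54363, 57098, 57682 or 64247 (1.76 to 2.15, adjusted p = 0.0587 to 0.0898). Rebound over Vehicle TC gave 1.55 (edgeR adjusted p = 0.336) and Rebound over Endpoint TC -0.60 (edgeR adjusted p = 0.537).

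**Figure D2:**
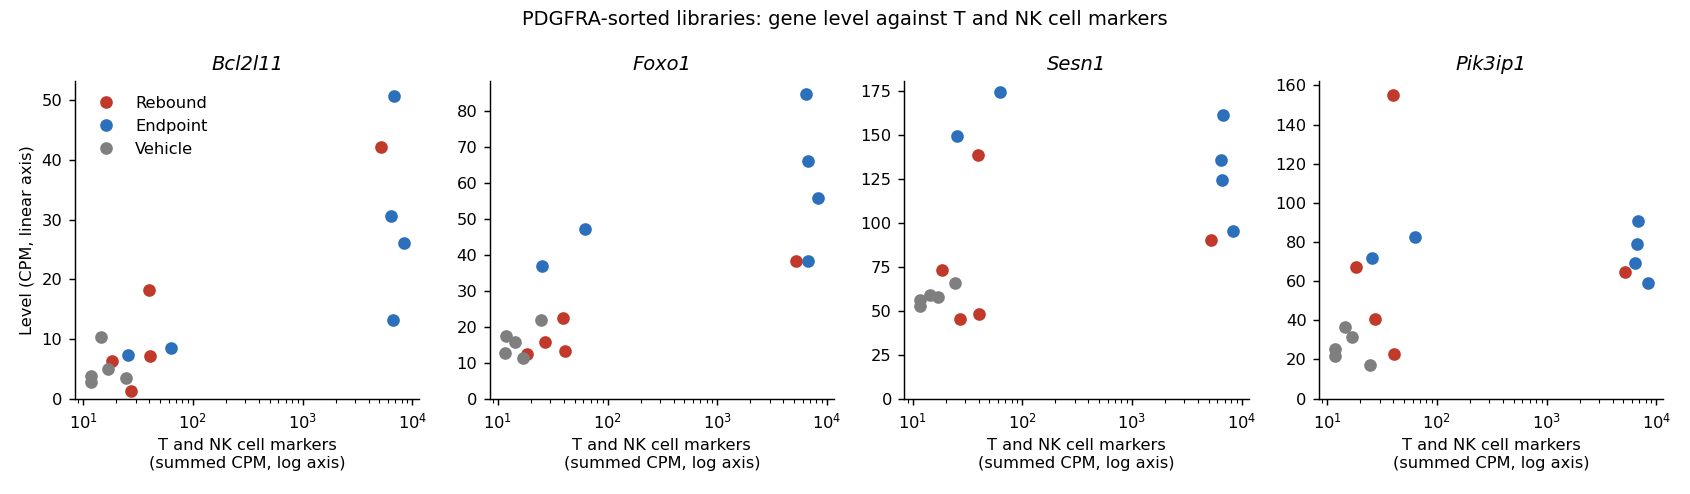
CPM (linear axis) of Bcl2l11, Foxo1, Sesn1 and Pik3ip1 in each TC library against the summed CPM of 16 T and NK cell markers (log axis), coloured by stage. The 2 Endpoint libraries with 62.6 and 25.5 CPM of markers lie near Vehicle for Bcl2l11, and above every Vehicle library for Foxo1, Sesn1 and Pik3ip1.

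**Figure D3:**
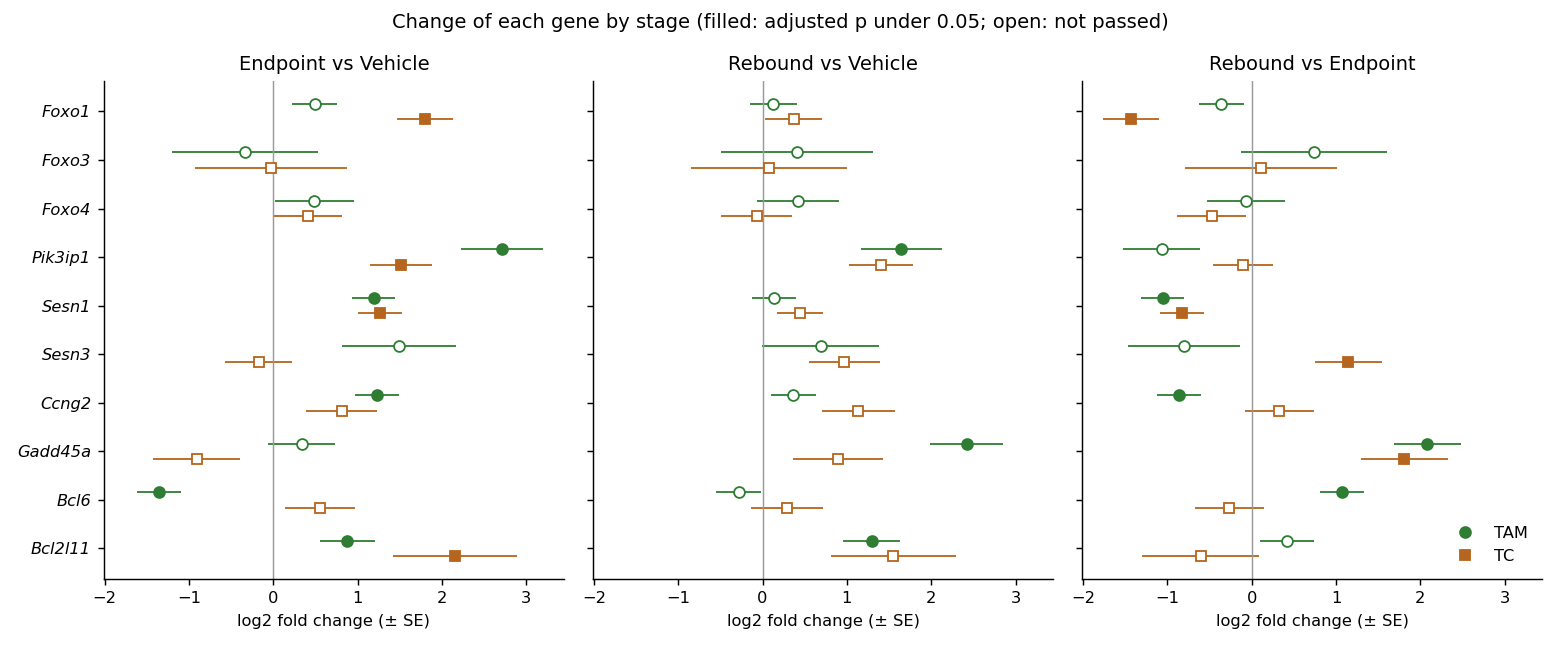
The log2 fold change of each gene (point) with its SE (whisker) for Endpoint over Vehicle, Rebound over Vehicle and Rebound over Endpoint, in TAM (circles) and TC (squares); filled symbols passed an adjusted p of 0.05 and open symbols did not. Sesn1, Pik3ip1 and Bcl2l11 are filled in both sorts for Endpoint over Vehicle, and no TC symbol is filled for Rebound over Vehicle.

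TAM and TC differed in Sesn1, Sesn3, Ccng2 and Bcl2l11 at every stage. These levels come from 1 fit over all 32 libraries, so CPM values differ slightly from those within a sort. At Vehicle, 4 genes were higher in TAM, against 25.6% of 15668 genes, and 2 were lower, against 29.2%. Sesn1 averaged 173 ± 33.0 CPM in Vehicle TAM and 48.7 ± 4.24 CPM in Vehicle TC (SD, n = 5 each; log2 fold change 1.83, edgeR adjusted p = 2.84e-06). Ccng2 averaged 82.6 and 24.4 CPM (1.76, adjusted p = 0.000274), Bcl6 28.6 and 8.69 CPM (1.72, adjusted p = 0.000207) and Bcl2l11 33.4 and 4.24 CPM (2.98, adjusted p = 0.000193) in Vehicle TAM and Vehicle TC. Lower in TAM were Sesn3, with 1.21 and 13.5 CPM (-3.49, adjusted p = 2.17e-05), and Pik3ip1, with 5.51 and 22.0 CPM (-2.0, adjusted p = 0.000586). TAM and TC libraries did not overlap for these 6 called genes. The share of all genes without such overlap was not counted.

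At Endpoint 3 genes were higher in TAM and 2 lower, against 18.7% and 32.4% of all genes, and at Rebound 4 were higher and 2 lower, against 20.4% and 27.4%. Sesn1 was higher in TAM at both, with 364 against 116 CPM at Endpoint (1.65, edgeR adjusted p = 5.21e-06) and 178 against 64.9 CPM at Rebound (1.46, adjusted p = 8.19e-05). Sesn3 was lower in TAM at both, with 3.10 against 11.9 CPM at Endpoint (-1.93, adjusted p = 0.00332) and 1.82 against 26.1 CPM at Rebound (-3.84, adjusted p = 9.41e-06). Bcl2l11 was higher in TAM at Endpoint (1.57, adjusted p = 0.0164) and Rebound (2.66, adjusted p = 0.000696), and so was Ccng2 at Endpoint (2.08, adjusted p = 1.76e-05). Ccng2 at Rebound (0.93, adjusted p = 0.0410) fell short without any of 6 Rebound libraries, TAM 49041 or 49827 or TC 49059, 49692, 49827 or 49849 (0.65 to 0.92, adjusted p = 0.0634 to 0.167), without the 8 libraries (0.80, adjusted p = 0.257), and with RLE size factors, DESeq2 or no filter (0.87 to 0.93, adjusted p = 0.0512 to 0.0608).

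Foxo1 was lower in TAM than in TC at Endpoint, at 25.5 ± 7.97 against 45.3 ± 14.9 CPM (SD, n = 6 each; -0.83, edgeR adjusted p = 0.0166), with overlapping libraries; without TC Endpoint 49825 it was -0.66 (adjusted p = 0.0588) with no filter -0.69 (adjusted p = 0.0555), and without the 8 libraries -0.44 (adjusted p = 0.329). Pik3ip1 was lower in TAM at Rebound, at 16 against 57.6 CPM (-1.85, edgeR adjusted p = 0.00143, and -1.41, adjusted p = 0.120, without the 8 libraries). At Endpoint, at 32.9 against 62.4 CPM with no overlap, it was not called in the main fit (-0.92, edgeR adjusted p = 0.0606). It was called in 6 of 38 alternatives. Among these were edgeR with the mouse as a block (-1.04, adjusted p = 0.0278) and 4 fits that leave out 1 library. Those libraries were TAM Endpoint 49830, TAM Rebound 49827 and TC Rebound 49041 and 49849 (-1.06 to -0.92, edgeR adjusted p = 0.0417 to 0.0477). Bcl6 was higher in TAM at Rebound (1.09, adjusted p = 0.0129), at 22.2 against 10.4 CPM, and by 0.50 (adjusted p = 0.413) without the 8 libraries.

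The sorts answered differently for 2 genes. The difference of the Endpoint-over-Vehicle change, TAM minus TC, passed for Bcl6 (-2.01 ± 0.49, SE, edgeR adjusted p = 0.00336), which fell in TAM and had 0.55 in TC, and for Foxo1 (-1.41 ± 0.42, SE, edgeR adjusted p = 0.0151), which rose in TC and had 0.49 in TAM. So 0 of the 10 genes were called higher and 2 lower, against 8.73% and 17.0% of all genes. The Bcl6 difference was called in all 38 alternatives; that of Foxo1 was lost without TAM Vehicle 54363 (-1.03, adjusted p = 0.0683) and without the 8 libraries (-1.02, adjusted p = 0.130). For Sesn1 the difference was -0.18 ± 0.37 (SE, adjusted p = 0.763) and for Pik3ip1 1.08 ± 0.61 (SE, adjusted p = 0.198).

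For Rebound relative to Endpoint, Bcl6 alone passed (1.39 ± 0.48, SE, edgeR adjusted p = 0.0412), so 1 higher and 0 lower against 13.4% and 7.18%, and Foxo1 had 1.12 ± 0.42 (SE, adjusted p = 0.0576). The Bcl6 call was lost in edgeR with the mouse as a block (1.36, adjusted p = 0.0866), with no filter (1.26, adjusted p = 0.0855) and in 14 of the 32 fits that leave out 1 library (1.02 to 1.42, adjusted p = 0.0507 to 0.111). Those libraries were TAM Rebound 49041, 49059 and 49849, TAM Endpoint 49830, 49831 and 49845, TAM Vehicle 54359, 54363 and 64247, TC Rebound 49059, 49692 and 49849, and TC Endpoint 49830 and 49843. Leaving out those 8 libraries, it was 1.15 (adjusted p = 0.234). For Rebound over Vehicle, 0 of the 10 genes passed in edgeR and in DESeq2, and 1 had an unadjusted p under 0.05; of all genes, 0.319% were higher and 0.198% lower.

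Per kilobase of exon, which allows levels of different genes to be compared, Sesn1 and Ccng2 led in TAM at every stage. In Endpoint TAM, Sesn1 averaged 78.4, Ccng2 49.0, Pik3ip1 9.54 and Bcl2l11 6.96 CPM per kilobase. Rebound TAM had Sesn1 at 37.7 and Ccng2 at 26.9, followed by Gadd45a at 10.5 CPM per kilobase. In Vehicle TAM the order was Sesn1 at 34.3, Ccng2 at 20.9 and Bcl6 at 6.37 CPM per kilobase. In TC the top 3 were the same genes at each stage but in another order: Pik3ip1 at 23.8, Ccng2 at 20.6 and Sesn1 at 20.0 at Rebound, Sesn1 at 35.4, Pik3ip1 at 25.5 and Ccng2 at 16.5 at Endpoint, and Sesn1 at 14.7, Ccng2 at 9.39 and Pik3ip1 at 8.94 CPM per kilobase at Vehicle. Neighbours in these orders within an SD of each other, such as the 3 at Rebound TC, were not separated. Foxo1 lay between 1.79 and 6.33 CPM per kilobase in all groups.

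**Figure D4:**
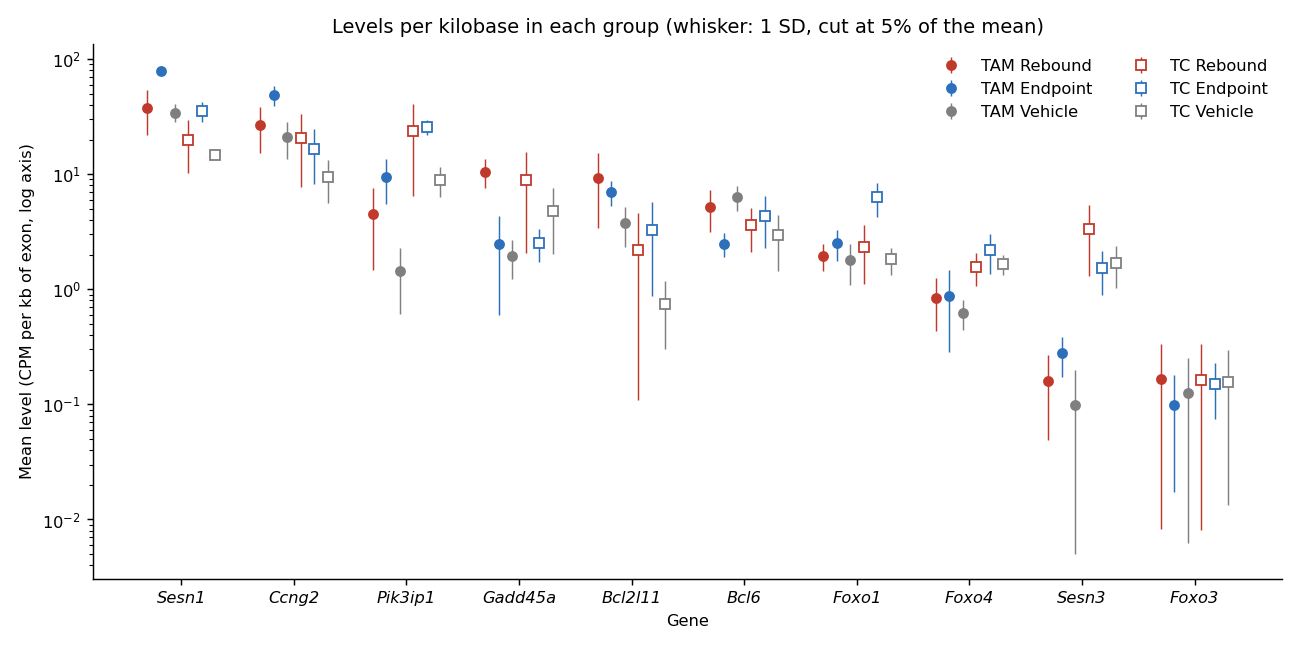
Mean level of each gene in CPM per kilobase of exon (log axis) in the 6 groups, with whiskers of 1 SD (the lower one cut at 5% of the mean); filled circles are TAM and open squares TC. Sesn1 in Endpoint TAM is the highest point at 78.4, and Foxo3 is the lowest gene in 4 of the 6 groups, with Sesn3 lowest in Rebound and Vehicle TAM.

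The rest of the pathway was described from lists of genes, and the response of the listed genes to FOXO factors was not tested here. The lists are to be read against the share of all genes called, 13.7% higher and 19.3% lower for Endpoint over Vehicle TAM. In Endpoint TAM, of 33 other genes listed as FOXO-induced and tested, 8 rose and 9 fell relative to Vehicle. Their median log2 fold change was 0.04 against -0.03 for all genes. The largest changes were falls: Klf2, a quiescence factor, with 0.470 against 4.66 CPM (-3.27, edgeR adjusted p = 0.00119), Bcl2l1, which encodes BCL-XL, with 41.02 against 390 CPM (-3.25, adjusted p = 3.23e-06), and Erbb3, a receptor, with 0.125 against 1.17 CPM (-3.23, adjusted p = 0.0325). Bcl2l1 is also on the list of BIM partners. How FOXO factors move it was not tested, so its fall gives no direction of FOXO activity. Of 15 genes listed as lowered by FOXO factors, 0 rose and 6 fell (median -0.68), led by Myc, the growth factor-responsive oncogene, with 4.97 ± 2.41 against 108 ± 35.5 CPM (-4.44, adjusted p = 3.45e-05), Id1 (-3.48, adjusted p = 0.000195) and Vegfa (-2.31, adjusted p = 0.0322).

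The other lists were counted in Endpoint TAM against the same shares. Of 33 PI3K, AKT and mTOR components, 6 rose and 9 fell, among them the adaptors Irs1 (-2.40, edgeR adjusted p = 0.0446) and Pik3ap1 (-1.69, adjusted p = 1.75e-06). Of 13 genes listed as opposing PI3K and AKT, 4 rose and 2 fell; Phlpp2 (1.28, adjusted p = 0.00320) and Phlpp1 (1.05, adjusted p = 0.0260) encode phosphatases that act against AKT, and 1 list member, Pik3r4, encodes a kinase subunit and no phosphatase. Of 23 proteins that bind or modify FOXO, 5 rose and 3 fell, led by the deacetylase Sirt1 (1.85, adjusted p = 0.000300), the kinase Mapk8 (1.29, adjusted p = 0.00214) and the 14-3-3 protein Ywhag (-1.15, adjusted p = 0.000169). Among 23 p53 targets, 1 rose and 8 fell, led by Plk2 (-2.68, adjusted p = 0.00141), Cdkn1a (-2.46, adjusted p = 0.00107) and Tnfrsf10b (-2.30, adjusted p = 0.0196). Of 14 BCL2 family genes listed as partners of BIM, 2 rose and 4 fell, led by Bcl2l1 again, Bid (-2.19, adjusted p = 5.03e-06) and Bcl2l2 (1.46, adjusted p = 0.00670). Bid encodes a BH3-only protein like BIM itself.

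The same lists were counted in Endpoint TC, where 14.0% of all genes rose and 14.8% fell, and 4.41% and 2.80% without the 8 libraries. Of 33 other FOXO-induced genes, 9 rose and 4 fell (median 0.45 against 0.03 for all genes), led by genes used by lymphocytes: Fasl (10.01, edgeR adjusted p = 0.0211), Il7r (6.66, adjusted p = 0.0217) and Tnfsf10 (4.84, adjusted p = 0.0352). Without the 8 libraries 2 rose and 2 fell, and Il7r had 3.56 (adjusted p = 0.0994). Of 33 PI3K components, 6 rose and 5 fell, led by the leukocyte subunits Pik3r5 (4.72, adjusted p = 0.0332), Pik3cg (4.47, adjusted p = 0.0138) and Pik3cd (4.34, adjusted p = 0.0147); without the 8 libraries 3 rose and 0 fell, and Pik3cg had 3.44 (adjusted p = 0.00837). Myeloid markers summed to 3173 to 18473 CPM in Endpoint TC and 400 to 3581 CPM in Vehicle TC; their part in the result was not tested.

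Of the 15 genes listed as lowered by FOXO factors, 10 fell and 1 rose in Endpoint TC (median -1.96), against 14.8% and 14.0% of all genes. The list holds mitotic genes, and whether FOXO factors lower those was not tested. Ccnd1, a D-type cyclin, had 76.0 ± 115 against 1737 ± 796 CPM (-4.52, edgeR adjusted p = 0.00193), Ccnb1, a mitotic cyclin, 16.7 against 202 CPM (-3.61, adjusted p = 0.00204) and Plk1, a mitotic kinase, 9.71 against 78.1 CPM (-3.02, adjusted p = 0.00197). With these 8 libraries omitted, 2 of the 15 were lower, against 2.80% of all genes, while Ccnd1 had -3.38 (adjusted p = 0.0752). Pdgfra and other tumour cell and progenitor markers summed to 319 to 2743 CPM in Endpoint TC and 2615 to 9558 CPM in Vehicle TC; their part in these falls was not tested.

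The shares of all genes in Endpoint TC, 14.0% that rose and 14.8% that fell, apply to the next lists too. Of the 13 genes listed as opposing PI3K, 3 rose and 1 fell in Endpoint TC, led by Inpp4b (2.43, edgeR adjusted p = 0.0484), Inpp5k (1.69, adjusted p = 0.00347) and Synj2 (1.23, adjusted p = 0.0411). Inpp4b turned to -1.77 (adjusted p = 0.0412) without the 8 libraries. Among 23 FOXO-binding or modifying proteins, 0 rose and 5 fell, led by Skp2 (-1.69, adjusted p = 0.0158), Ctnnb1 (-1.20, adjusted p = 0.00813) and the 14-3-3 protein Ywhae (-1.16, adjusted p = 0.00156). Of 24 p53 targets, 4 rose and 9 fell, led by Perp (4.03, adjusted p = 0.0126), Eda2r (-3.90, adjusted p = 0.00272) and Plk2 (-3.23, adjusted p = 0.00272). Of 15 genes listed as BIM partners, 2 rose and 1 fell: Bcl2 (3.96, adjusted p = 0.0141, and 0.56, adjusted p = 0.367, without the 8 libraries), Bmf (2.94, adjusted p = 0.0367) and Bax (-1.28, adjusted p = 0.00240). Bmf encodes a BH3-only protein like BIM itself.

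**Figure D5:**
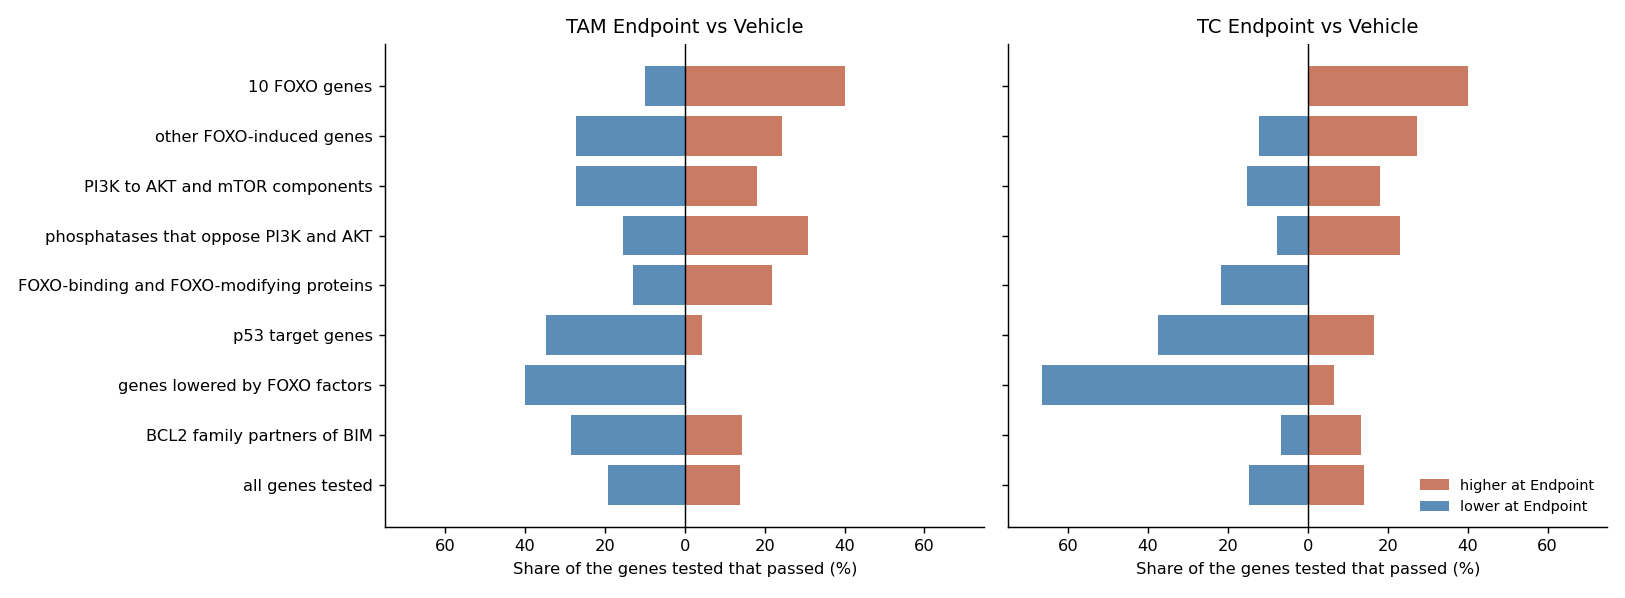
Share of the tested genes of each list, in percent, that were higher (right) or lower (left) at Endpoint than at Vehicle, in TAM and in TC, with all genes tested in the bottom row. The 10 FOXO genes had 4 higher in each sort, and the genes listed as lowered by FOXO factors had 6 of 15 lower in TAM and 10 of 15 lower in TC.

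At Rebound the pathway lists were compared with Endpoint, where 11.7% of all genes were higher and 5.90% lower in TAM, and 3.40% and 0.767% without the 8 libraries. In TAM, 9 of the 33 other FOXO-induced genes were higher and 3 lower, among them the receptor Erbb3 (4.14, edgeR adjusted p = 0.0170) and the lymphocyte homing receptor Ccr7 (3.98, adjusted p = 0.00212); without the 8 libraries 2 were higher and 2 lower. Of the genes listed as lowered by FOXO factors, 5 were higher and 6 lower, with Myc at 52.0 against 4.97 CPM (3.39, adjusted p = 0.000624), Ccnd2 (3.35, adjusted p = 3.74e-05) and Id1 (3.14, adjusted p = 0.00112). Of 23 p53 targets, 7 were higher and 0 lower, led by Plk2 (3.24, adjusted p = 0.00104), Cdkn1a (1.75, adjusted p = 0.0176) and Fas (1.72, adjusted p = 0.0386); without the 8 libraries 1 was higher, and Fas turned to -0.13 (adjusted p = 0.939). Genes listed as BIM partners were 3 higher and 2 lower, with Bik (-3.82, adjusted p = 0.00104), Bcl2l1 at 287 against 41.02 CPM (2.81, adjusted p = 3.80e-05) and Bmf (-1.15, adjusted p = 0.0314).

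In Rebound relative to Endpoint TC, 13.6% of all genes were higher and 11.5% lower, and 5.69% and 10.5% without the 8 libraries. In the fit of all TC libraries, 9 of the 15 genes listed as lowered by FOXO were higher and 1 lower, with Ccnd1 (4.15, edgeR adjusted p = 0.00321), Id1 (-3.61, adjusted p = 0.00111) and Ccnb1 (3.46, adjusted p = 0.00287). Of 33 PI3K components, 7 were higher and 1 lower, led by the adaptors Gab1 (2.08, adjusted p = 0.00162) and Irs1 (1.92, adjusted p = 0.0142) and the kinase Sgk3 (-1.78, adjusted p = 0.0124). With the 8 lymphocyte-marked libraries left out, genes listed as lowered by FOXO were 5 higher and 1 lower, and PI3K components 1 higher and 6 lower. Between Rebound and Vehicle TC, 0 genes of any of the 7 lists passed, where 0.0400% of all genes were higher and 0.0334% lower.

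The ligand and receptor named in the series title were measured beside these genes. In TAM, Igf1 averaged 357 ± 79.0 CPM at Rebound, 23.2 ± 38.9 CPM at Endpoint and 44.8 ± 24.3 CPM at Vehicle (SD, n = 5, 6 and 5). Endpoint over Vehicle gave -0.96 (edgeR adjusted p = 0.349), and -2.62 (adjusted p = 0.000114) without the Endpoint library of mouse 49843. It rose at Rebound over Vehicle by 2.99 (edgeR adjusted p = 0.0272) and over Endpoint by 3.95 (adjusted p = 0.00403). The call over Vehicle was lost without Rebound 49041 or Vehicle 54359, 54363, 57098 or 64247 (2.74 to 3.09, adjusted p = 0.0523 to 0.0605) and with no filter (2.95, adjusted p = 0.0587). Without the 8 libraries neither passed (2.92, adjusted p = 0.1596, and 3.90, adjusted p = 0.0638). In the same Rebound TAM, Pik3ip1, Gadd45a and Bcl2l11 passed over Vehicle and Sesn1 did not. Igf1 in TC averaged 5.87 CPM at Rebound, 13.5 CPM at Endpoint and 2.94 CPM at Vehicle. It rose at Endpoint over Vehicle TC by 2.20 (edgeR adjusted p = 0.0306), with overlapping libraries and a call in 16 of 24 alternatives. Its TAM minus TC difference passed for Endpoint over Vehicle (-3.31, edgeR adjusted p = 0.0183) and for Rebound over Endpoint (5.22, edgeR adjusted p = 0.00109). In TC, Igf1r averaged 67.2 ± 12.7 CPM at Rebound, 30.8 ± 6.33 CPM at Endpoint and 43.2 ± 19.2 CPM at Vehicle, and rose at Rebound over Endpoint by 1.13 (adjusted p = 0.00939; 1.02, adjusted p = 0.137, without the 8 libraries).

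For each member, the 2 genes with the nearest profile were found by the root mean square difference of centred log2 CPM over all 32 libraries. Sesn1 lay nearest to Ctage5 (0.41) and D15Ertd621e (0.47), Bcl6 to Vps37c (0.44) and D4Ertd22e (0.52), Foxo1 to 4921513D23Rik (0.47) and Fbxw7 (0.47), Foxo4 to Git1 (0.50) and Pafah1b1 (0.52), and Ccng2 to Dleu2 (0.54) and Cdk9 (0.55). The others had more distant neighbours, which were Rbfox2 (0.72) and Apbb1 (0.79) for Sesn3, Arid3a (0.78) and Fam53b (0.79) for Bcl2l11, Tfdp2 (0.83) and Trim24 (0.84) for Pik3ip1, Hif1a (0.86) and Adam9 (0.87) for Gadd45a, and Triobp (0.97) and Pex10 (1.00) for Foxo3. The median over all genes was 1.28 to 2.02. No member was among the 2 nearest genes of another member.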

How the data were processed

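The deposited table holds raw read counts per gene symbol for 32 libraries, and no other columns. Per the labels' protocols, RNA of sorted cells was amplified with a SMART-Seq kit and read as 2 × 50 bases; per the submitters' processing notes, STAR 2.3.0e, SAMtools and mm10 were used. The counter is not given in the sources used here. The even counts of all BLZ945 libraries were taken as deposited, with halved counts as an alternative.

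Libraries were grouped by sort and stage. Counts were tested with edgeR 4.0.16 (quasi-likelihood, TMM scaling, filterByExpr) in R 4.3.3, each sort on its own for stages and all 32 libraries for TAM against TC and for differences of changes, with Benjamini-Hochberg adjustment over all genes tested and a threshold of 0.05. Fits were tested on simulated data. limma 3.58.1 and DESeq2 1.42.0 served as alternatives. Mouse numbers pair TAM and TC of the same animal, and the correlation of their deviations was 0.011 to 0.337. The labels name separate mice as replicates; the closest 2 libraries of a group still differed by a chi-square of 21.0 per degree of freedom, so none was counted as a repeat.

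The rule was to name all 10 members in every comparison. Here Foxo3 and Foxo4 are given as levels only, and for TAM against TC and the differences of changes the members that did not pass are mostly given by their count. From each other list that is described, up to 3 called genes with the largest log2 fold change are named. Some genes that this rule names are not reported here. The members and lists were chosen with earlier results of these data known. The 8 lymphocyte-marked libraries (T and NK markers over 50 CPM in TAM or 1000 CPM in TC) were left out as an alternative chosen after seeing the data.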

Additional observations from a re-analysis of the deposited data

Results flagged for a closer look

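Among 60 groups of libraries checked for a single distant library, 4 held one, and chance alone gives about 3 (1 in 20). Gadd45a stood at 7.70 CPM in the Endpoint TAM library of mouse 49843, with the next at 2.60 CPM. Gadd45a stood at 25.7 CPM in the Rebound TC library of mouse 49041, with the next at 9.08 CPM. Foxo3 stood at 3.40 CPM in the same Rebound TC library, with the next at 1.08 CPM. Foxo3 had 0 CPM in the Endpoint TC library of mouse 49830, with the next at 1.14 CPM.

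The change between stages differed between TAM and TC in a test of the difference itself for Foxo1 (-1.41, Endpoint over Vehicle) and for Bcl6 (-2.01, Endpoint over Vehicle, and 1.39, Rebound over Endpoint).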

How the results depend on the processing

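The number of the 10 genes called was compared in 84 pairs of a comparison and a setting that leaves out no single library, halved BLZ945 counts included. It stayed within 1.5 times that of the main fit for 70 of these pairs, with 0 genes in both fits counted as unchanged. Which genes were called was not part of this count. The other 14 follow, and the cause was not tested. With 2 groups only, 1 gene was called in Rebound over Vehicle TAM and 2 in Rebound over Endpoint TC. With voom over all 32 libraries and a replicate block (mouse), which changes the test as well, 1 was called in Rebound over Vehicle TAM and 2 in Rebound over Endpoint TAM. With edgeR and the block, 0 were called for the TAM minus TC difference in Rebound over Endpoint; that difference had 0 with no filter and 3 with DESeq2. DESeq2 called 1 in Rebound over Vehicle TC. With the 8 lymphocyte-marked libraries left out, which also leaves fewer samples, the counts were 0 in Rebound over Endpoint TAM, 2 in Endpoint over Vehicle TC, 1 in Rebound over Endpoint TC, 3 for TAM against TC at Rebound, and 1 and 0 for the differences in Endpoint over Vehicle and Rebound over Endpoint.

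Leaving out 1 library at a time gave 2 to 3 genes in Rebound over Vehicle TAM, 4 to 6 in Endpoint over Vehicle TAM, 3 to 5 in Rebound over Endpoint TAM, 0 in Rebound over Vehicle TC, 3 to 4 in Endpoint over Vehicle TC, 2 to 4 in Rebound over Endpoint TC, 5 to 7, 4 to 6 and 6 for TAM against TC at Rebound, Endpoint and Vehicle, and 0, 1 to 3 and 0 to 3 for the differences in Rebound over Vehicle, Endpoint over Vehicle and Rebound over Endpoint. Among the fold changes that the report gives, directions turned for Sesn1 in Rebound over Vehicle TAM (-0.10 in voom with the block) and, without the 8 libraries, for Foxo1 (-0.24) in Rebound over Vehicle TAM, Fas (-0.13) in Rebound over Endpoint TAM, Inpp4b (-1.77) and Sesn3 (0.25) in Endpoint over Vehicle TC and Bcl2l11 (0.067) in Rebound over Endpoint TC. Of these, Fas and Inpp4b had been called.

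With 1 library left out, the ranges that cross 0 among those same fold changes were -0.024 to 0.36 for Foxo1 and -0.055 to 0.36 for Sesn1 in Rebound over Vehicle TAM, -0.18 to 0.51 for Gadd45a in Endpoint over Vehicle TAM, -0.039 to 0.56 for Bcl2l11 in Rebound over Endpoint TAM, -0.40 to 0.034 for Sesn3 in Endpoint over Vehicle TC, -0.10 to 0.61 for Ccng2 and -0.62 to 0.12 for Pik3ip1 in Rebound over Endpoint TC, and -0.27 to 0.041 for the Sesn1 difference in Endpoint over Vehicle; none had been called. Foxo3 was called in 0 of 369 alternative fits and Foxo4 in 3 of 372, at low counts. The median log2 fold change of all genes moved by over 0.1 with no filter on low counts (by -0.18 to 0.19 over the comparisons) and in the 6-group fit (-0.13, Endpoint over Vehicle TAM). It also did so with RLE size factors and with DESeq2 (-0.11 in each, TAM against TC at Vehicle) and without the 8 libraries (-0.13 to 0.12).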
